A study of Mus musculus with 4 samples.

Results

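The Polycomb repressive complexes were followed through 10 of their genes in mouse embryonic stem (ES) cells that had lost and then regained Morc3. The members are Ezh2, Eed and Suz12, which form the core of Polycomb repressive complex PRC2, Jarid2 and Mtf2, which are accessory subunits of PRC2, Rnf2 and Ring1, the catalytic subunits of PRC1, and Cbx7, Pcgf6 and Kdm2b, which belong to different forms of PRC1. They were chosen by gene symbol, with earlier results of these data known, and all 10 were found among the 24054 genes of the count tables. All 10 also passed the low-count filter, as did 13267 genes in total.

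RNA was sequenced from 3 Morc3 rescue clones and from 1 wild-type library of the ES cell line wt26. The rescue clones 3C, 3D and 3M are single-cell clones of 1 Morc3 ko (knock-out) line, itself a single clone made from wt26, and they carry a Morc3 cDNA on a PiggyBac transposon driven by the human PGK promoter with a puromycin resistance gene. All 3 clones therefore share the disrupted endogenous Morc3 gene, the transposon and the history of puromycin selection, and wild type has none of these. All cells grew without feeders on gelatin in medium with serum and LIF, the cytokine that keeps ES cells undifferentiated. The comparison asks how ES cells with re-expressed Morc3 differ from wild type. No library of the ko line was used here. A change on loss of Morc3, or a return from it, was therefore not measured.

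PRC2 places methyl groups on lysine 27 of histone H3, and PRC1 attaches ubiquitin to histone H2A. In ES cells both complexes sit on CpG-rich promoters of developmental regulators and keep these genes silent until differentiation. Canonical PRC1 is brought to methylated histone H3 by a Cbx protein, whereas variant PRC1 reaches its promoters through other subunits such as Kdm2b.

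The wild-type library held 18789457 read pairs on genes and the clone libraries held 13620914 to 15479190. Between 14.5% (wild type) and 23.0% (clone 3D) of all read pairs were unmapped, and the ribosomal RNA gene Rn45s took between 14.7% and 16.0% of the gene counts. Morc3 had 161 CPM (counts scaled to library size) in wild type and 655, 497 and 609 CPM in 3C, 3D and 3M. All clones were above wild type, at a log2 fold change of 1.87 ± 0.17 (SE) and an adjusted p of 0.11 in edgeR's quasi-likelihood test. Morc3 was called by DESeq2's Wald test (adjusted p = 3.99e-23) and by edgeR without clone 3D (adjusted p = 7.46e-09), and over all other settings its adjusted p lay between 0.024 and 0.52. The 8 ES cell markers lay between 152 and 766 CPM in every library. All clones were above wild type for 3 of the 8 and below it for 1, against 28.7% and 28.4% of all genes tested. Nanog, among the 3, had 300 CPM in wild type and 468, 358 and 481 CPM in 3C, 3D and 3M. The 17 markers of fibroblasts and differentiated cells summed to 145 CPM in wild type and to 186, 139 and 176 CPM in 3C, 3D and 3M. Of these, 9 were under 1 CPM in every library and the fibroblast collagen Col3a1 had 0 counts in all 4. Others were expressed. Thy1, also in the fibroblast list, had between 18.6 and 43.7 CPM, the neural marker Nes 35.6 to 60.3 and the trophoblast marker Tfap2c 51.9 to 79.5. Krt8, of the trophoblast list, had 8.55 CPM in wild type and 19.5, 12.6 and 15.9 CPM in 3C, 3D and 3M. Genes of chromosome 14 were above wild type in all clones, with medians between 0.34 and 0.35 on the log2 scale, whereas the median of chromosome 13 was 0.48 in 3C and in 3M and 0.03 in 3D.

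edgeR's quasi-likelihood test was applied to all genes that passed the filter, with Benjamini-Hochberg adjustment and a threshold of 0.01 on the adjusted p. Since wild type is 1 library, only the clones give a spread, which presumes that wild type varies to the same degree. The p-values set the difference from wild type against the spread between these clones. Since the clones derive from 1 ko line, the p-values do not cover variation between ko lines or between wild-type cultures. None of the 10 Polycomb members passed the test (percent called over all genes, 0.00754%, which is 1 gene, Ddx3y, named here because its value was seen). DESeq2's Wald test called 65 genes (0.49%) and limma-voom called 0, and again no member was among them. By edgeR's unadjusted p, 1 of the 10 members was under 0.05, against 10.3% of all genes. That member was Cbx7, on the lower side, where 4.42% of all genes lay, with 5.92% on the higher side. In 4 of 10 members the clones did not overlap wild type, against 57.1% of all genes.

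**Figure D1:**
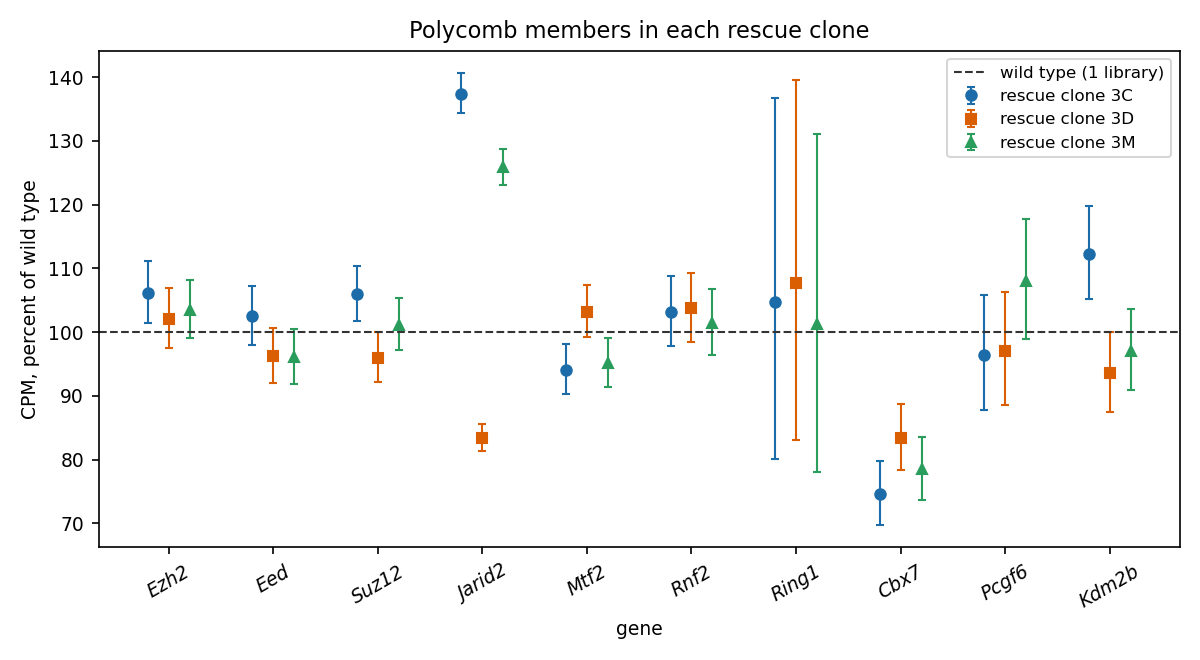
Level of each Polycomb member in rescue clones 3C, 3D and 3M (y axis, CPM as percent of wild type, with the dashed line at the wild-type library). Bars are 95% intervals of the counting error only. Cbx7 lies between 74.6% and 83.4% of wild type in all clones, Jarid2 is at 137%, 83.4% and 126%, and the other members stay between 93.6% and 112%.

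The clone means of the PRC2 core genes lay between 98.3% and 104% of the wild-type level, and none of these genes passed the test. Ezh2, the histone methyltransferase (mm10 chromosome 6, 47530274 to 47595270), had 226 CPM in wild type and 240, 231 and 234 CPM in 3C, 3D and 3M. All 3 clones lay slightly above wild type, with a coefficient of variation (CV) of 2.0% between them. The clone mean of Ezh2 was 235 ± 4.71 CPM (SD, n = 3), a log2 fold change of 0.06 ± 0.06 (SE) with an adjusted p of 0.80 in edgeR's quasi-likelihood test. The 95% interval of this fit ran from 93.1% to 116% of the wild-type level. In bulk RNA, fewer cells of a type and less RNA per cell cannot be told apart, for this gene and for all that follow.

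Eed, which binds methylated histone H3 and stimulates the enzyme (chromosome 7, 89954654 to 89980976), had 235 CPM in wild type and 241, 226 and 226 CPM in 3C, 3D and 3M. Clone 3C was above wild type and the other clones were below it. The log2 fold change of Eed was -0.03 ± 0.07 (SE) with an adjusted p of 0.93 in edgeR's quasi-likelihood test, and an interval from 87.0% to 111% of wild type. Suz12, the scaffold of the complex (chromosome 11, 79993106 to 80034123), had 284 CPM in wild type and 301, 273 and 287 CPM in the clones, again on both sides of wild type. Its log2 fold change was 0.01 ± 0.08 (SE) with an adjusted p of 0.97 in edgeR's quasi-likelihood test, and its interval ran from 88.5% to 115%. Per kilobase of exon, Suz12 stood at 0.94 times Eed in wild type and at 0.97, 0.93 and 0.99 times Eed in 3C, 3D and 3M. The ratio of these core genes to each other thus differed little between the 4 libraries.

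Among the accessory subunits of PRC2, Jarid2 differed between the clones far more than any other member. Jarid2, a Jumonji-family protein without demethylase activity that helps recruit PRC2, had 787 CPM in wild type and 1082, 657 and 990 CPM in 3C, 3D and 3M. Clones 3C and 3M were above wild type, at 137% and 126% of its level, and 3D was below it, at 83.4%. These differences exceeded the counting error, whose 95% intervals were 134% to 141% for 3C, 81.3% to 85.6% for 3D and 123% to 129% for 3M. The CV between clones was 24.6% for Jarid2 and between 1.16% and 9.84% for the other members, beside a median of 9.03% over all genes tested. With clones on both sides of wild type, Jarid2 had a log2 fold change of 0.21 ± 0.27 (SE) with an adjusted p of 0.82 in edgeR's quasi-likelihood test and an interval from 73.2% to 183% of wild type. Without clone 3D its log2 fold change was 0.40, and edgeR's quasi-likelihood test gave an adjusted p of 0.0031, in a fit that called 3.17% of all genes.

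Jarid2 lies on chromosome 13 of mm10, from 44730774 to 44921643. In log2 CPM it differed from wild type by 0.46, -0.26 and 0.33 in 3C, 3D and 3M, while the 512 tested genes of chromosome 13 had medians of 0.48, 0.03 and 0.48. Measured from its chromosome's median, Jarid2 was at -0.02, -0.29 and -0.15 in these clones, so it was below that median in all 3. It ranked at the 46th, 17th and 29th percentile of the genes of its chromosome. In 3D the tested genes around Jarid2 lay on both sides of wild type, whereas Jarid2 was below it. All 5 neighbours on each side of Jarid2 were lower in 3D than in 3C and 3M. Dtnbp1, the next gene downstream, stood at 0.74, 0.27 and 0.76 on the log2 scale in 3C, 3D and 3M. The level of chromosome 13 moved with Jarid2 across the clones, and its part in the Jarid2 values was not tested.

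**Figure D2:**
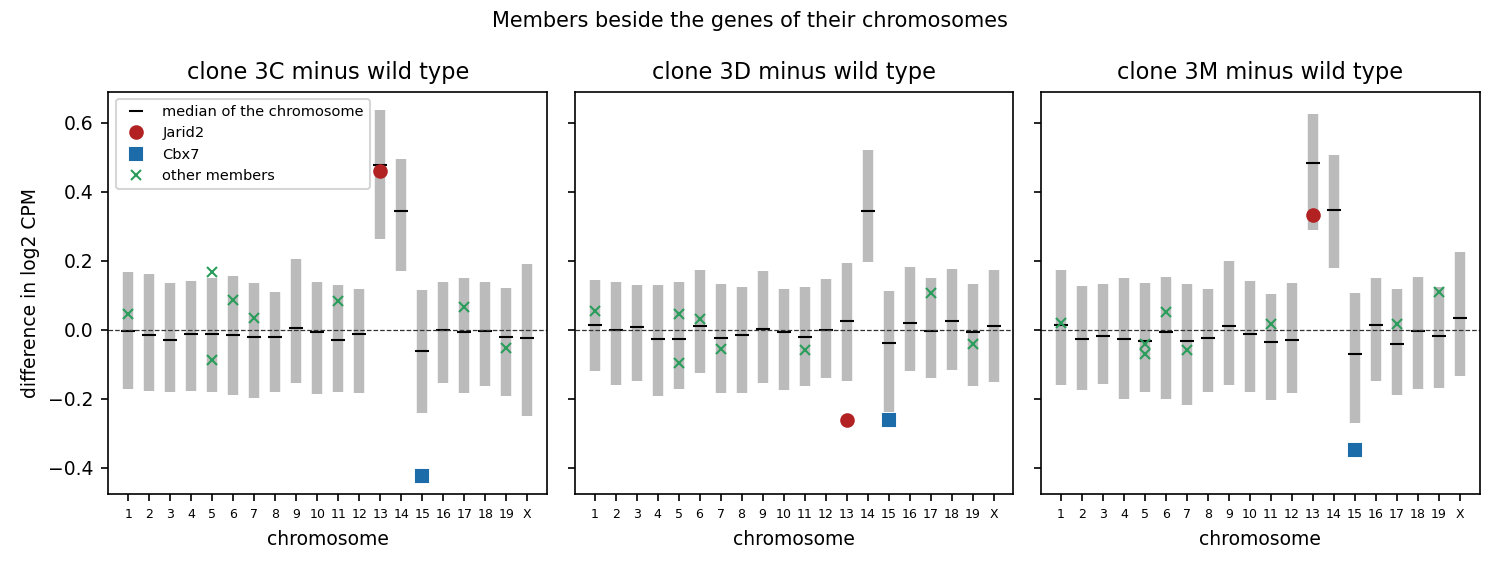
Difference from wild type in log2 CPM (y axis) for the Polycomb members on their chromosomes (x axis), with 1 panel for each rescue clone. Grey bars span the quartiles of the tested genes of a chromosome and black ticks mark the median. Jarid2 (circle) is near the chromosome 13 median of 0.48 in clone 3C, and Cbx7 (square) is below the lower quartile of chromosome 15 in every clone.

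Mtf2, the Polycomb-like subunit that binds CpG-rich DNA (chromosome 5, 108065660 to 108109219), had 295 CPM in wild type and 278, 305 and 281 CPM in 3C, 3D and 3M. Here clone 3D was above wild type and the others below, the reverse of Jarid2. The log2 fold change of Mtf2 was -0.04 ± 0.08 (SE) with an adjusted p of 0.90 in edgeR's quasi-likelihood test, and an interval from 85.4% to 111% of wild type. Since Jarid2 and Mtf2 mark different forms of PRC2, their ratio per kilobase of exon was also computed. It was 1.57 in wild type, 2.29 in 3C, 1.26 in 3D and 2.07 in 3M. The ratio in wild type thus lay between that of 3D and those of the other clones.

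The catalytic subunits of PRC1 had clone means of 103% (Rnf2) and 105% (Ring1) of wild type. Rnf2 (Ring1b), the main ubiquitin ligase of PRC1 in ES cells (chromosome 1, 151469398 to 151500991), had 173 CPM in wild type and 179, 180 and 176 CPM in 3C, 3D and 3M. All clones were slightly above wild type, and with a CV of 1.16% this was the tightest member. The log2 fold change of Rnf2 was 0.04 ± 0.07 (SE) with an adjusted p of 0.86 in edgeR's quasi-likelihood test, and the interval ran from 91.9% to 115%. Ring1 (Ring1a), its paralog and the lowest member per kilobase of exon (chromosome 17, 34020792 to 34024680), had 7.08 CPM in wild type and 7.42, 7.63 and 7.16 CPM in the clones. These values rest on only 135 counts in wild type and between 100 and 111 counts in a clone. The log2 fold change of Ring1 was 0.06 ± 0.18 (SE) with an adjusted p of 0.93 in edgeR's quasi-likelihood test, and a difference between 77.0% and 142% of wild type could not be told from no difference at this depth. Per kilobase of exon, Rnf2 was 19.2 times Ring1 in wild type and 18.9, 18.5 and 19.3 times Ring1 in 3C, 3D and 3M.

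Cbx7 had the largest log2 fold change in size of the members, and it was the only one below wild type in every clone. It encodes the chromodomain protein of canonical PRC1 that prevails in undifferentiated ES cells. Cbx7 had 134 CPM in wild type and 99.9, 112 and 105 CPM in 3C, 3D and 3M, from 2554 wild-type counts and 1347, 1625 and 1629 counts in the clones. The groups did not overlap, as in the 28.4% of all genes tested that had all 3 clones below wild type. The clone mean was 106 ± 5.89 CPM (SD, n = 3), or 78.8% of wild type. The counting intervals of all clones ended below wild type, the highest at 88.8% in 3D. The fitted log2 fold change of Cbx7 was -0.34 (standard error 0.09, 95% interval 67.9% to 91.5% of wild type), with an unadjusted p of 0.0084 and an adjusted p of 0.31 from edgeR's quasi-likelihood test. It was not called. Over all alternatives the log2 fold change of Cbx7 lay between -0.31 and -0.39 and its adjusted p in edgeR, DESeq2 and limma-voom between 0.015 and 0.86, the lowest without clone 3D.

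Cbx7 lies on chromosome 15, from 79915804 to 79971143, on the minus strand. The medians of chromosome 15 were -0.06, -0.04 and -0.07 in 3C, 3D and 3M, and Cbx7 was 0.36, 0.22 and 0.28 lower than these on the log2 scale. Its neighbours did not share the direction as a group. Cbx6, a related chromodomain gene on the same chromosome, had a log2 fold change of 0.00 (standard error 0.09). Apobec3, an antiviral cytidine deaminase gene on the opposite strand that shares 100 exon bases (1.54%) with Cbx7, had a log2 fold change of 0.28 with an unadjusted p of 0.016 from edgeR's quasi-likelihood test. The share of forward-strand read pairs on Cbx7 was between 0.074% and 0.20% in the 4 libraries. Against Rnf2, per kilobase of exon, Cbx7 stood at 0.49 in wild type and at 0.36, 0.40 and 0.38 in 3C, 3D and 3M. Against Cbx2, another Cbx gene of canonical PRC1, it stood at 2.26 in wild type and at 1.68, 1.67 and 1.63. In both ratios wild type lay above all clones.

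The members of variant PRC1 lay on both sides of wild type. Pcgf6, the Polycomb group RING finger protein of the variant complex that also holds Max, Mga and L3mbtl2 (chromosome 19, 47033617 to 47050939), had 58.5 CPM in wild type and 56.4, 56.8 and 63.1 CPM in 3C, 3D and 3M. Only 3M was above wild type. Pcgf6 had a log2 fold change of 0.01 ± 0.10 (SE) with an adjusted p of 0.99 in edgeR's quasi-likelihood test, and an interval from 84.3% to 120% of wild type. Kdm2b, the CpG-binding histone demethylase that recruits the variant complex of Pcgf1 (chromosome 5, 122870664 to 122989270), had 111 CPM in wild type and 124, 103 and 107 CPM in the clones. Clone 3C was above wild type and the others below, with a CV of 9.84%, the next after Jarid2. Its log2 fold change was 0.01 ± 0.12 (SE) with an adjusted p of 0.98 in edgeR's quasi-likelihood test, and the interval ran from 82.4% to 124%.

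As a group, the 10 members had a median log2 fold change of 0.01, beside 0.01 over all genes tested, with quartiles of -0.14 and 0.16. In the single clones the median of the members was 0.06, -0.05 and 0.02 in 3C, 3D and 3M. Of the 10 members, 8 had a log2 fold change under 0.1 in size, as had 36.7% of all genes tested. Among genes of 50 CPM or more the same held for 7 of 9 members and for 54.9% of 3896 genes. The members outside this range were Jarid2 and Cbx7.

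Per kilobase of exon, the members spanned a wide range of levels, and their order was nearly the same in all libraries. Jarid2 was highest, with 81.0 RPKM (CPM divided by the kilobases of exon) in wild type and 93.6 ± 23.0 RPKM (SD, n = 3) in the clones. Eed followed with 61.4 and 60.3 ± 2.25 RPKM, and Suz12 with 57.4 and 58.0 ± 2.86 RPKM, and these genes overlapped over the clones. Mtf2 had 51.8 RPKM in wild type and 50.5 ± 2.58 in the clones, Rnf2 41.9 and 43.1 ± 0.50, and Ezh2 33.9 and 35.2 ± 0.71. The clone ranges of these genes overlapped neither each other nor that of Suz12. Cbx7 came next, with 20.6 RPKM in wild type and 16.3 ± 0.91 in the clones. Pcgf6 (11.6 and 11.7 ± 0.75 RPKM) and Kdm2b (10.2 and 10.3 ± 1.01 RPKM) overlapped and changed places in clone 3C. Ring1 was last in every library, with 2.18 RPKM in wild type and 2.28 ± 0.07 in the clones. The order depends on the length used, since by the longest transcript in place of all exons only Mtf2, Cbx7 and Ring1 kept their rank in wild type, with Eed first and Jarid2 next.

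**Figure D3:**
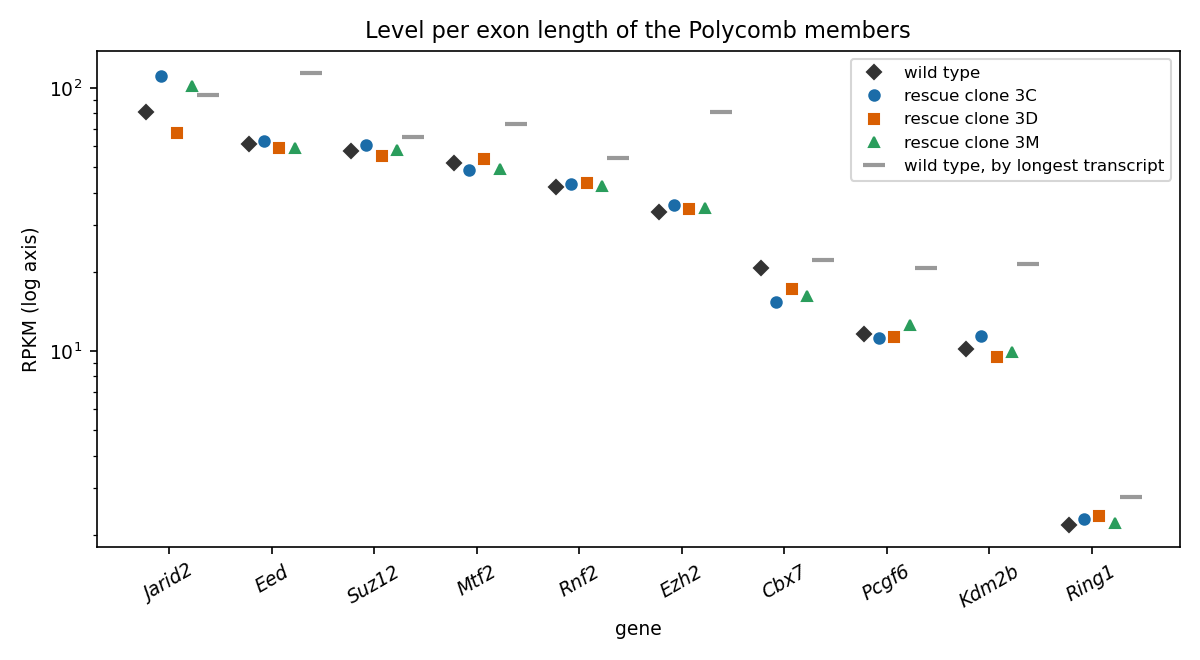
Level of each Polycomb member per kilobase of exon (y axis, RPKM on a log axis) in wild type and rescue clones 3C, 3D and 3M. Grey dashes give wild type by the longest transcript. Jarid2 reaches 111 RPKM in clone 3C, and Ring1 stays between 2.18 and 2.35 RPKM in all 4 libraries.

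The promoters of the members had a feature in common that was not used to choose them. All 10 were matched by symbol to RefSeq promoters of GRCm38.p6, windows of 300 bases from 250 before to 50 after a transcript start. That start need not be the outer end of the gene, and for Cbx7 it lies inside the gene's span. These windows held between 17 and 41 CG dinucleotides, with a median of 30, beside a median of 7 over 27025 promoters. The lowest was Eed, and 69.9% of promoters had as many CG or fewer. The background took all promoters without regard to expression, and no comparison with expressed genes alone was made.

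The other genes of the Polycomb system were examined as a list of 53 genes, all of which were tested. None passed edgeR's quasi-likelihood test, DESeq2's or limma-voom's. DESeq2 gave no adjusted p for some of them, among these Bmi1, Asxl3, Phf1, Pcgf1 and Cbx8, so it could not call those. By edgeR's unadjusted p, 6 of the 53 genes were under 0.05, beside 10.3% of all genes tested. Of these, Max and Bap1 were higher in the clones and Ezh1, Rbbp4, Phc1 and Auts2 were lower. Max, the DNA-binding partner of Mga in the complex of Pcgf6, had a log2 fold change of 0.29 ± 0.08 (SE), and Rbbp4, a histone-binding subunit of PRC2, had -0.17 ± 0.07 (SE). The median log2 fold change was 0.00 over the 53 genes, -0.10 over 9 further genes of PRC2, 0.02 over 33 of PRC1 and -0.01 over 11 genes of the enzymes that oppose Polycomb. All clones were above wild type in 16 of the 53 genes and below it in 12, against 28.7% and 28.4% of all genes tested.

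Among the paralogs of the PRC2 members, Ezh1 was below wild type in every clone. Ezh1, the methyltransferase that prevails in non-dividing cells, had 588 wild-type counts and 331, 351 and 392 counts in 3C, 3D and 3M, and a log2 fold change of -0.32 ± 0.11 (SE), with p values of 0.024 before and 0.41 after adjustment in edgeR's quasi-likelihood test. Per kilobase of exon, Ezh2 was at 8.18 times Ezh1 in wild type and at 10.9, 10.7 and 10.3 times Ezh1 in the clones. The other Polycomb-like genes, Phf1 and Phf19, had log2 fold changes of 0.00 and -0.10 (standard errors 0.24 and 0.21). Aebp2, which joins PRC2 together with Jarid2, had 0.04 (standard error 0.10).

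Of the PRC1 paralogs, the RING finger genes Pcgf1, Pcgf2, Pcgf3 and Pcgf5 had log2 fold changes between -0.18 and 0.14. Bmi1 (Pcgf4) had 56 wild-type counts and 47, 72 and 68 counts in 3C, 3D and 3M. Its log2 fold change was 0.55 ± 0.29 (SE) with an adjusted p of 0.57 in edgeR's quasi-likelihood test, with all clones above wild type. Cbx2 had 0.10 (standard error 0.11), and Cbx8 rested on at most 14 counts in a library. Bcor, a corepressor in the variant complex of Pcgf1, had a log2 fold change of 0.44 (standard error 0.53). It had 634 wild-type counts and 291, 904 and 790 counts in 3C, 3D and 3M, so 3C was far below the other clones.

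At the other end, Asxl3, Auts2 and Phc1 were lowest in the list. Phc1, a polyhomeotic subunit of canonical PRC1, had 6085 wild-type counts and 2948, 4075 and 3636 counts in 3C, 3D and 3M, with a log2 fold change of -0.38 ± 0.14 (SE) with an adjusted p of 0.44 in edgeR's quasi-likelihood test. Without clone 3D, Phc1 fell by 0.49 on the log2 scale with an adjusted p of 0.0016 in edgeR's quasi-likelihood test, the only 1 of the 53 genes called in that fit, which called 3.17% of all genes. Auts2, part of a variant PRC1 linked to gene activation, had 596 wild-type counts and 276, 295 and 391 counts in the clones. Auts2 had a log2 fold change of -0.50 ± 0.16 (SE), with an unadjusted p of 0.019 in edgeR's quasi-likelihood test. Asxl3, a partner of the H2A deubiquitinase Bap1, had 103 wild-type counts and 51, 52 and 61 counts in the clones (log2 fold change -0.52, standard error 0.21). For each of these genes all clones were below wild type. Bap1 itself lies on chromosome 14 and had a log2 fold change of 0.20 ± 0.07 (SE) with an adjusted p of 0.44 in edgeR's quasi-likelihood test. It was above wild type by 0.17, 0.23 and 0.20 in 3C, 3D and 3M, and below the median of its chromosome in each.

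**Figure D4:**
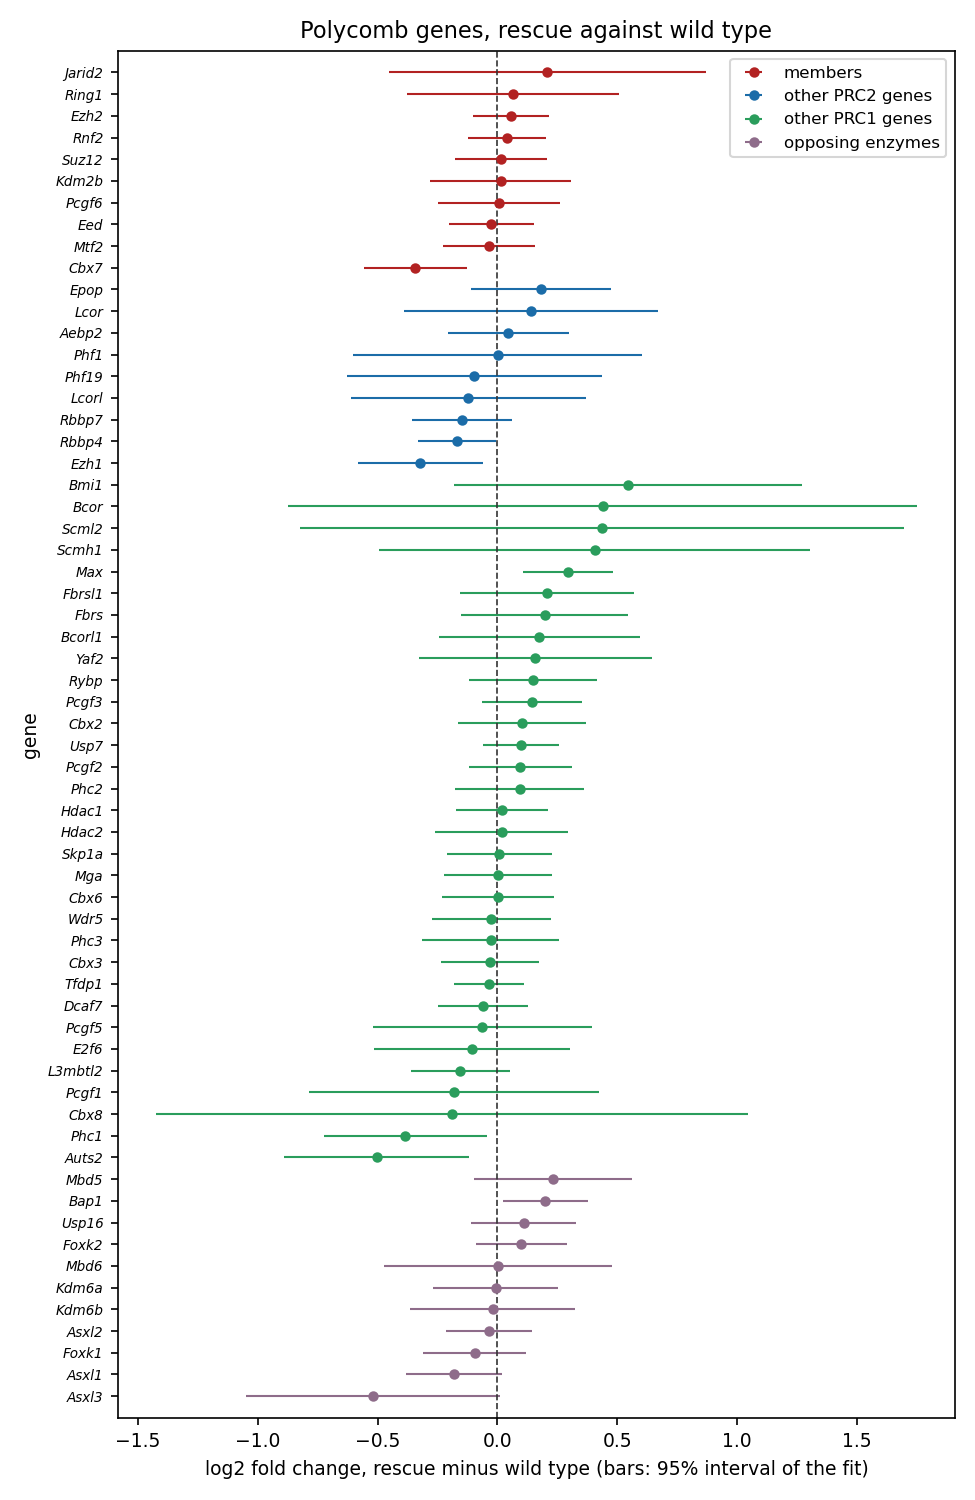
Fitted log2 fold change of rescue against wild type (x axis) for the 10 members and 52 of the 53 further Polycomb genes (y axis), with 95% intervals of the fit as bars and colour by group. Most members cluster at 0, Cbx7 lies at -0.34 with an interval below 0, and Cbx8, a gene of few counts, has a wide interval.

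Genes that Polycomb is known to keep silent in ES cells were also read, without a measure of the histone marks themselves. Of 41 developmental regulators, 30 were under 1 CPM in every library, 7 of them with 0 counts in all 4, and 12 passed the low-count filter, which a gene under 1 CPM can pass. None passed edgeR's quasi-likelihood test, DESeq2's or limma-voom's. DESeq2 gave no adjusted p for Tal1, Gata2 and Cdkn2a, so it could not call them. By DESeq2's unadjusted p, 3 of 12 genes were under 0.05, beside 5.75% of all genes tested. By edgeR's unadjusted p this was 2 of 12 genes, beside 10.3% of all genes tested. One was Tbx3, a factor that ES cells express, with 231 CPM in wild type and 326, 285 and 264 CPM in 3C, 3D and 3M, above wild type in every clone (log2 fold change 0.34, standard error 0.12). The other was Gata2, a blood cell regulator, with 68 wild-type counts and 69, 113 and 134 counts in the clones. Gata2 had a log2 fold change of 1.02 ± 0.35 (SE) with an adjusted p of 0.43 in edgeR's quasi-likelihood test. Tal1, also of blood development, had 32 wild-type counts and 31, 76 and 101 counts in the clones (log2 fold change 1.50, standard error 0.62). Cdkn2a, the cell cycle inhibitor locus, had 23 wild-type counts and 13, 2 and 12 counts in the clones (-0.95, standard error 0.70). After scaling for depth, Tal1 and Gata2 were above wild type and Cdkn2a was below it in every clone. Having all clones on 1 side was a condition for naming these genes. Of the 12 genes, 3 had all clones above wild type and 2 below it, against 28.7% and 28.4% of all genes tested.

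Of 18 germline genes, a class kept silent by the variant PRC1 that contains Pcgf6, 11 could be tested and 9 were under 1 CPM in every library. Stag3, the highest of the list, was expressed, with 53.8 CPM in wild type and 45.6, 47.9 and 56.4 CPM in 3C, 3D and 3M. None of the 11 passed edgeR's quasi-likelihood test, DESeq2's or limma-voom's. DESeq2 gave no adjusted p for Mov10l1, Smc1b and Sycp3, so it could not call them. By DESeq2's unadjusted p, 0 of the 11 were under 0.05, beside 5.75% of all genes tested. By edgeR's unadjusted p, 2 were under 0.05, again beside 10.3% of all genes tested. Of the 11, 1 had all clones above wild type and 5 had all clones below it, against 28.7% and 28.4% of all genes tested. The 2 genes were Mov10l1, a helicase of the piRNA pathway, with 134 wild-type counts and 45, 62 and 80 counts in 3C, 3D and 3M (log2 fold change -0.71, standard error 0.26), and Zcwpw1, a meiotic histone reader, with 250 counts and 110, 117 and 150. Both were lower in all clones. Smc1b, a meiotic cohesin gene, had 55 wild-type counts and 14, 23 and 40 counts in the clones (-0.71, standard error 0.45), and Sycp3, of the synaptonemal complex, had 24 and 11, 10 and 15 (-0.60, standard error 0.40). The clones of Smc1b and Sycp3 were below wild type too, and neither gene passed the test. Having all clones on 1 side was a condition for naming Mov10l1, Smc1b and Sycp3. The gene with all clones above wild type was Ddx4, a germ cell RNA helicase, with 28.6, 22.9 and 29.8 CPM in 3C, 3D and 3M, on average 135% of wild type (log2 fold change 0.44, standard error 0.18). Ddx4 lies on chromosome 13. In log2 CPM it was above wild type by 0.51, 0.19 and 0.57 in 3C, 3D and 3M. The medians of its chromosome were 0.48, 0.03 and 0.48, and their part in the Ddx4 values was not tested.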

How the data were processed

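Per the labels and the study's methods, rRNA-depleted RNA was sequenced with a directional kit as 50 bp read pairs, and the authors aligned them to mm10 with STAR. The deposited values are raw counts, in which each gene holds its uniquely aligned read pairs. Their annotation version was not given in the sources used here. The reverse-strand column was used, since the forward column held 1.26% to 1.31% as many counts, and lines that name no gene, which held 47.3% to 54.9% of all read pairs, stayed out. Clones were not copies of each other (chi-square per gene 7.17 to 10.8).

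Counts were fitted with edgeR 4.0.16 under R 4.3.3, by glmQLFit and glmQLFTest after TMM scaling and filterByExpr. CPM are TMM-scaled, with a prior count of 2 for log2 CPM. limma 3.58.1, DESeq2 1.42.0, other filters, scalings, the unstranded column and leaving out each clone were alternatives. On simulated counts with 200 genes changed 4-fold in the rescue against wild-type comparison, edgeR recovered 95.5%. Changes as small as those of the Polycomb members were not simulated, so this gives no recovery for them. In the data, Morc3 at a mean of 365% of wild type was not called by edgeR with all clones. Positions came from the RefSeq annotation of mm10 (GRCm38.p6), which left 160 of 24054 symbols without a place, and exon lengths from GENCODE. Eed, Mtf2, Rnf2, Kdm2b and Cbx7 share between 1.54% and 6.93% of their exon bases with a listed gene on the opposite strand, and Cbx6 shares 5.31% with Npcd on its own strand.

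The members and lists were chosen with earlier results of these data known. Named genes were all members, Morc3 and the paralogs. Of the further Polycomb list, those on chromosomes 13 and 14 and the 3 highest and 3 lowest were named. Of each target list, the 3 largest one-sided differences were named. Max, Rbbp4, Tbx3, Zcwpw1, Ddx4, Stag3, Apobec3, Dtnbp1, Nanog, Thy1, Nes, Tfap2c and Krt8 were named after their values were seen. One gene of the Polycomb list is not reported here singly. Intervals on counts cover counting error only.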

Additional observations from a re-analysis of the deposited data

Results flagged for a closer look

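Read pairs on the forward strand of Morc3, which the comparisons do not use, stood out. They were 18.2%, 21.7% and 19.4% of the read pairs on both strands of Morc3 in rescue clones 3C, 3D and 3M (1963, 2001 and 2266 counts), and 0.23% (7 counts) in wild type. Among the Polycomb members the highest such share in any library was 1.08%, for Kdm2b in wild type.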

How the results depend on the processing

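The number of Polycomb members called was 0 in edgeR with every other column, scaling, filter and threshold tried, and with DESeq2, limma-voom and the legacy option, and it was between 0 and 1 with a clone left out (1 without 3D, Jarid2). Their median log2 fold change moved by less than the spread of the clones. Over all genes, the 1 call became 0 with 10 or more counts in every library, with limma-voom and with the legacy option, and 65 with DESeq2, and it lay between 0 (without 3M) and 420 (without 3D) with a clone left out. By longest transcript, 3 of 10 members kept their rank. Jarid2 was on average below the chromosome 13 median with the unstranded column, both other scalings, both other filters and each clone left out. The log2 fold changes whose sign turned with a clone left out ranged from -0.021 to 0.050 for Suz12, -0.048 to 0.036 for Pcgf6, -0.069 to 0.065 for Kdm2b, -0.066 to 0.062 for Phf1, -0.25 to 0.00028 for Phf19, -0.00033 to 0.097 for Aebp2 and -0.035 to 0.024 for Cbx6. Phf1 was at -0.00021 with DESeq2 size factors, -0.0021 without a filter, -0.0024 with the stricter filter and -0.00027 with limma-voom, and Cbx6 at -0.0012, -0.00071 and -0.0010 with the unstranded column, no filter and the stricter filter. The cause was not tested. No paired analysis was possible with 1 wild-type library.

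With 1 wild-type library, Morc3 status cannot be told apart from that culture, the ko clone or the selection. RNA levels give no protein or histone mark. The depth of Ring1 and Cbx8 limits what can be seen to large differences.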
